A study of Zea mays with 6 samples.

Results

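In mature maize anthers, 157 genes stood far lower in a ZmCOI2a and ZmCOI2b double mutant than in wild type, out of 31470 genes listed in all. They were chosen on these same measurements. A gene had to have an identifier beginning with Zm00001d and a mean wild-type level of at least 5 FPKM (fragments normalised to gene length and library size). The mean of log2(FPKM + 1) over the wild-type libraries had to exceed that of the mutant libraries by at least 1.5. The highest mutant library also had to lie below the lowest wild-type library. Of 30950 identifiers with that beginning, 10991 reached the wild-type level and are called eligible genes here. The difference was reached by 165 of them, and 8 of these were left out because the genotypes overlapped. The 157 genes are therefore 1.43% of the eligible genes. Because the difference between genotypes chose them, it is described below and not tested.

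The study sequenced RNA of mature anthers of the maize inbred line B104 as 6 libraries. The 3 wild-type libraries were compared with 3 libraries of the genotype ZmCOI2a-/-,ZmCOI2b-/-, and no treatment is given. The labels do not give the mutant alleles, the plants behind each library or whether replicates came from separate plants, so the spread between libraries may be partly technical. The title of the series places both genes in anther dehiscence, the opening of the anther that releases pollen, and in gametophytic male fertility.

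COI proteins are F-box subunits of a ubiquitin ligase. In Arabidopsis, COI1 binds the jasmonate conjugate jasmonoyl-isoleucine together with a JAZ repressor, the repressor is then degraded, and transcription factors such as MYC2 are released. Jasmonate is known in Arabidopsis for its part in filament growth, anther opening and pollen maturation. A mature anther holds pollen grains beside the cells of the anther wall, and its RNA is a mixture of both. In such bulk samples, fewer cells of a type and less RNA per cell cannot be told apart.

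The files pair none of the Zm00001d identifiers with a gene name, and a RefSeq gene table of a newer assembly matched 0 of them. The lowered genes are therefore given by position on the build B73 RefGen_v4, named in the submitters' processing notes, and their functions, anther or pollen markers and the targeted genes themselves were not analysed here. Depth was even, between 16845656 and 17759978 reads counted on genes per library, so 1 read in a gene of 1000 bp is worth 0.0563 to 0.0594 FPKM. Both of the following touch every result below. Wild-type replicate 3 and mutant replicate 3 both read the lowered genes more strongly than the other libraries of their genotype. FPKM as deposited also ran higher in wild type across the table, with a median log2 difference of 0.20 over the 18984 genes that reached 1 FPKM in 3 or more libraries. With the libraries rescaled by median-of-ratios factors, which remove such a shift, 100 of the 157 genes still met the rule, and with upper-quartile factors 113 did.

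Together the 157 genes held a small part of each library, and a much smaller one in the mutant. They took 0.783%, 0.842% and 1.237% of the reads in wild-type replicates 1, 2 and 3, against 0.186%, 0.195% and 0.291% in mutant replicates 1, 2 and 3. The mean share was 0.954 ± 0.247% in wild type and 0.224 ± 0.058% in the mutant (SD, n = 3 each). In wild type the median gene of the set stood at 15.7, 17.9 and 26.4 FPKM in replicates 1 to 3, and in the mutant at 2.72, 3.83 and 5.21 FPKM. The log2 difference ran from 1.51 to 4.25 with a median of 1.89, or 1.66 after median-of-ratios scaling. With any 1 library left out, all 157 genes stayed higher in wild type by construction, since the rule allows no overlap between genotypes. The lowest log2 difference was then 0.55, without wild-type replicate 3. All 157 also stayed higher under both other scalings, where the limit of 1.5 left little room for a change of sign.

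**Figure D1:**
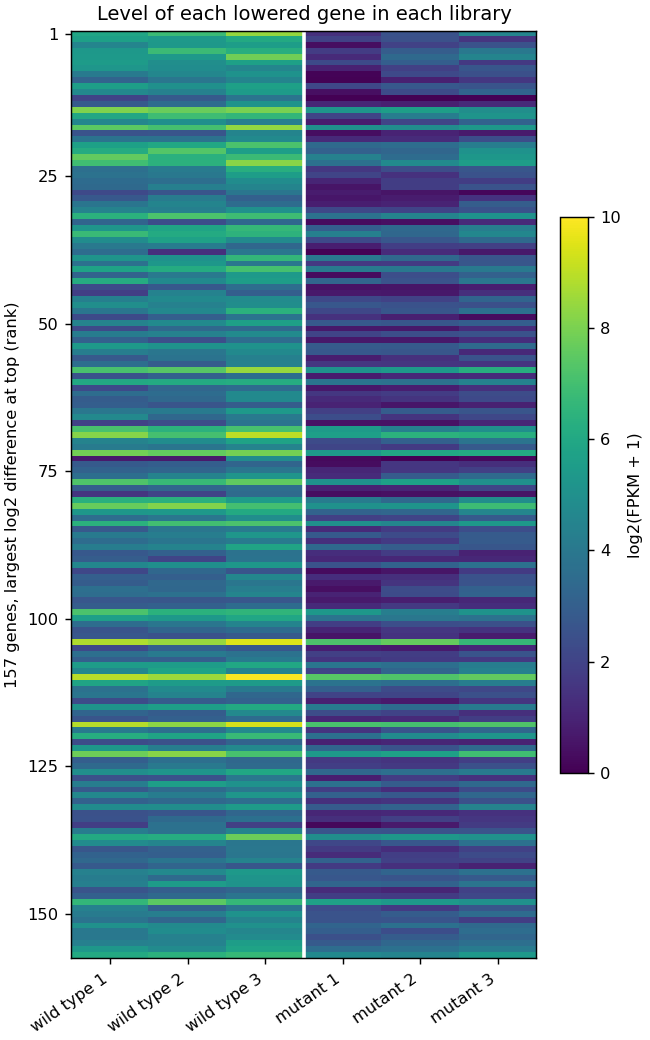
Level of each of the 157 lowered genes (rows, largest log2 difference at the top) in each of the 6 libraries (columns), as colour on the log2(FPKM + 1) scale. In every row the 3 mutant columns are darker than the 3 wild-type columns, as the rule requires, and bright rows of high level occur at the top, in the middle and in the lower part.

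Of the 10 largest differences, none belonged to the 10 most abundant genes. At the top stood Zm00001d044864 (chromosome 9, 5827581 to 5828567, plus strand), counted over its whole span of 987 bp. It read 60.1, 111.1 and 337.3 FPKM in the wild-type libraries and 1.61, 4.67 and 21.5 FPKM in the mutant libraries, a log2 difference of 4.25. Replicate 3 was the highest library in both genotypes, and the lowest wild-type library was 2.79 times the highest mutant library. Next came Zm00001d013783 (chromosome 5, 20028246 to 20077272, plus strand), which spans 49027 bp but is counted over 1377 bp. Its wild-type libraries read 50.9, 41.6 and 66.4 FPKM and its mutant libraries 2.85, 4.55 and 1.92 FPKM, a log2 difference of 3.74. Here the genotypes were much further apart than the libraries within them, with the lowest wild-type library 9.14 times the highest mutant library.

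A gene on chromosome 4 (10536338 to 10537204, minus strand) read 22.3, 39.3 and 46.2 FPKM in wild type and 0.295, 2.95 and 4.67 FPKM in the mutant. Mutant replicate 1 was far below the other mutant libraries there, at 4 reads against 40 and 64. On chromosome 3, a gene at 147649548 to 147650907 read 38.8, 111.6 and 75.5 FPKM in wild type and 2.42, 6.81 and 15.1 FPKM in the mutant. A gene on chromosome 2 (39644137 to 39644676) stood at 39.9, 40.9 and 226.8 FPKM in wild type and at 1.26, 9.81 and 22.0 FPKM in the mutant. Its wild-type mean rested mostly on replicate 3, which held 73.7% of the wild-type sum.

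Among the others of the 10 largest differences, a second chromosome 3 gene (6375732 to 6379654) read 43.9, 29.9 and 51.0 FPKM in wild type and 3.77, 6.88 and 2.14 FPKM in the mutant. On chromosome 5, a gene at 31731840 to 31732370 read 37.6, 27.9 and 22.4 FPKM in wild type and 0.879, 2.77 and 5.34 FPKM in the mutant. Replicate order differed between these genes, since wild-type replicate 1 was the highest in the chromosome 5 gene and replicate 3 in the chromosome 3 gene. A short gene of 349 bp on chromosome 4 (21425951 to 21426299), counted over its whole span, read 47.8, 31.1 and 50.5 FPKM in wild type and 3.42, 5.71 and 5.0 FPKM in the mutant. A chromosome 8 gene (107398664 to 107399764) read 8.15, 14.0 and 21.9 FPKM in wild type and 0.0516, 0.828 and 2.05 FPKM in the mutant, the latter from 1, 16 and 40 reads. Its mutant replicate 1 was nearly empty, unlike that of the 349 bp gene, whose mutant libraries were alike.

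Abundance in wild type spread widely, from 5.01 to 618.2 FPKM with a median of 21.3 FPKM, and the quartiles were 10 and 47.9 FPKM. Among the other 10834 eligible genes the median was 14.4 FPKM and the quartiles were 8.09 and 33.9 FPKM. Of the eligible genes at 5 to 10 FPKM in wild type, 0.98% met the rule (38 genes), against 1.94% of those at 20 to 50 FPKM (46 genes) and 2.1% of those from 200 FPKM on (10 genes). A pseudocount of 1 holds down the log2 difference of low genes, so the rule reaches fewer of them by construction. The 10 most abundant genes supplied 40.6% of the summed wild-type FPKM of the set and 45.5% of its summed mutant FPKM.

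**Figure D2:**
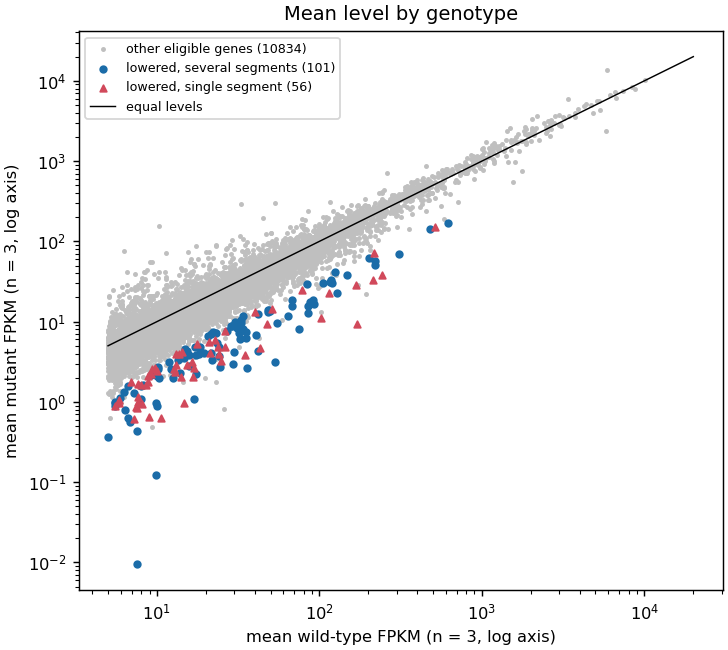
Mean wild-type FPKM (horizontal, log axis) against mean mutant FPKM (vertical, log axis), n = 3 libraries each, for all 10991 eligible genes. The 157 lowered genes lie below the line of equal levels across the range from 5.01 to 618.2 wild-type FPKM, with 56 single-segment genes (triangles) mixed among the 101 others (circles).

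The most abundant pair lay next to each other on chromosome 2. One gene (173882328 to 173889679) read 489.9, 374.4 and 990.2 FPKM in wild type and 170.1, 151.1 and 191.2 FPKM in the mutant. Its neighbour (173915387 to 173916278) read 469.9, 313.9 and 649.9 FPKM in wild type and 140.8, 131.3 and 150.7 FPKM in the mutant. Both kept the same order of wild-type libraries and of mutant libraries, and in both the mutant libraries lay closer together than the wild-type libraries.

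Between them in level was a gene on chromosome 9 (153485703 to 153486254), with 451.3, 352.1 and 731.7 FPKM in wild type and 145.3, 199.3 and 102.5 FPKM in the mutant. On chromosome 10, a gene at 141450912 to 141452580 read 289.2, 132.7 and 508.3 FPKM in wild type and 48.4, 84.8 and 76.6 FPKM in the mutant. Next in abundance, and even within both genotypes, was a gene on chromosome 8 (159082684 to 159083123), with 269.4, 207.5 and 250.3 FPKM in wild type and 35.9, 48.0 and 29.6 FPKM in the mutant. At 15.6% of its wild-type mean, it kept a smaller part than the 4 more abundant genes, which kept 22.5% to 29.5%.

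Of the 5 other genes among the 10 most abundant, those on chromosome 7 show how differently the libraries could behave. One (34632588 to 34634215) read 138.0, 168.6 and 353.8 FPKM in wild type and 33.1, 41.7 and 75.9 FPKM in the mutant. Another (67200869 to 67203502), counted over 252 bp of a span of 2634 bp, was flat in wild type at 232.2, 190.6 and 237.4 FPKM and read 40.4, 62.6 and 69.0 FPKM in the mutant. The remaining one (25911583 to 25912323) read 220.5, 293.9 and 134.7 FPKM in wild type and 41.9, 52.5 and 119.9 FPKM in the mutant. There the genotypes barely separated, since mutant replicate 3 reached 119.9 FPKM and wild-type replicate 3 only 134.7 FPKM. A chromosome 5 gene (40495144 to 40497737) came as close, with 115.4 FPKM in mutant replicate 3 and 127.2 FPKM in wild-type replicate 3, although its other mutant libraries read 32.5 and 35.6 FPKM. On chromosome 9, the last of the 10 (23695040 to 23695864) read 176.8, 132.5 and 330.9 FPKM in wild type and 31.5, 28.2 and 39.8 FPKM in the mutant.

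Few of the lowered genes were near 0 in the mutant. The mean mutant level was 20.5% of the mean wild-type level for the median gene, with quartiles of 15.6% and 27.0% and a highest value of 35.1%. A residual below 10% was found for 16 genes, 10% to 20% for 58, 20% to 30% for 64 and above 30% for 19. Most of the genes thus kept between 10% and 30% of their wild-type level. The upper end of these values is set largely by the rule, whose limit on the log2 difference leaves out genes with higher residuals. The median residual followed that limit, at 35.1% with a log2 difference of at least 1 and 15.1% with at least 2. In absolute terms 22 genes averaged under 1 FPKM in the mutant, 70 stood at 1 to 5 FPKM and 8 at 50 FPKM or more. Every mutant library was under 1 FPKM for 7 genes. The median gene had 248 mutant reads over the 3 libraries against 1321 wild-type reads, and 2 genes had under 10 mutant reads in all.

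The lowest residual belonged to a gene on chromosome 7 (125510140 to 125512430) with 107, 208 and 466 reads in wild type and 0, 0 and 1 reads in the mutant. A gene on chromosome 1 (121820597 to 121821836) had 3, 0 and 3 mutant reads, but only 10 reads in each of wild-type replicates 1 and 2, against 460 in replicate 3. Its place in the set therefore rests on wild-type replicate 3, which held 95.7% of its wild-type FPKM. Another chromosome 1 gene (229515984 to 229517919) read 3.63, 5.0 and 14.0 FPKM in wild type and 0.675, 0.483 and 0.127 FPKM in the mutant, and there mutant replicate 3 was the lowest of the mutant libraries.

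At the other end, a chromosome 10 gene (129108410 to 129115766) kept 35.1%, with 66.3, 82.9 and 102.0 FPKM in wild type and 25.8, 21.6 and 40.9 FPKM in the mutant. A chromosome 3 gene (203302960 to 203305033) kept 34.6%, with 28.5, 29.3 and 44.4 FPKM in wild type and 6.31, 8.06 and 21.0 FPKM in the mutant. Its mean residual hides a wide range, since mutant replicates 1 and 2 were far below replicate 3. Next were a second chromosome 3 gene (220480167 to 220482238), which kept 33.1%, the chromosome 7 gene at 25911583, which kept 33.0%, and a chromosome 2 gene (30712433 to 30716196), also at 33.0%.

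The wild-type libraries were not even over these genes. The coefficient of variation over the 3 wild-type libraries (CV, the SD as a percent of the mean) had a median of 39.4% with quartiles of 29.0% and 53.3%. Over the other eligible genes the median was 19.6% with quartiles of 11.9% and 30.7%. Wild-type replicate 3 was the highest of the wild-type libraries for 113 of the 157 genes (72.0%), against 54.0% of the other eligible genes, and wild-type replicate 1 was the lowest for 92 (58.6%, against 33.7%). In 39 genes 1 wild-type library was at least 2 times each of the others (24.8%, against 5.0%). As a percent of each gene's wild-type mean, the medians in wild-type replicates 1 to 3 were 73.7%, 84.2% and 133.7%. Over the other eligible genes they were 94.8%, 96.1% and 108.2%, so wild-type replicate 3 also read higher there, but by less. The wild-type values also chose the genes, so their CV is given as a description. When wild-type replicate 3 was left out of the rule, 107 of the 157 genes remained and 17 others met it. Over these 124 genes the median CV, now of 2 wild-type libraries, was 26.7%.

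Examples of even and uneven genes stood side by side in the set. The most even was on chromosome 6 (162852670 to 162854092), with 5.56, 5.35 and 5.54 FPKM in wild type, a CV of 2.12%, and 0.640, 0.813 and 1.18 FPKM in the mutant. A chromosome 8 gene (152031011 to 152037797) read 64.1, 67.4 and 71.6 FPKM in wild type and 14.0, 12.7 and 20.8 FPKM in the mutant, a CV of 5.49%. Also below a CV of 12% were a second chromosome 8 gene (27664867 to 27665855) at 30.3 ± 3.08 FPKM, a chromosome 5 gene (162429370 to 162433900) at 35.3 ± 4.04 FPKM, and the chromosome 7 gene at 67200869 (SD, n = 3 each). All of these kept a clear gap between genotypes, with the lowest wild-type library 2.26 to 4.52 times the highest mutant library.

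Among the most uneven genes the high library differed. Replicate 3 carried a chromosome 5 gene (173179372 to 173180406), at 11.7, 16.9 and 75.5 FPKM in wild type and 2.09, 4.07 and 5.33 FPKM in the mutant. Replicate 2 carried another chromosome 5 gene (220284286 to 220285517), at 2.58, 20.6 and 6.92 FPKM in wild type and 0.606, 0.552 and 1.53 FPKM in the mutant. It also carried a chromosome 7 gene (148944181 to 148945515), at 2.60, 12.1 and 2.72 FPKM in wild type and 0.170, 0.640 and 2.36 FPKM in the mutant. In that gene wild-type replicates 1 and 3 stood barely above mutant replicate 3.

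The mutant libraries also differed among themselves over these genes. Mutant replicate 3 was the highest mutant library for 111 of the 157 genes (70.7%), against 39.7% of the other eligible genes. Mutant replicate 1 was the lowest for 91 (58.0%), against 18.5%. As a percent of each gene's wild-type mean, the median was 15.0% in mutant replicate 1, 17.7% in replicate 2 and 27.5% in replicate 3. Over the other eligible genes those medians were 88.8%, 83.2% and 86.1%, so the higher reading of mutant replicate 3 was not shared by the table as a whole. The mutant values also chose the lowered genes and not the others, so these contrasts between libraries are given as a description.

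**Figure D3:**
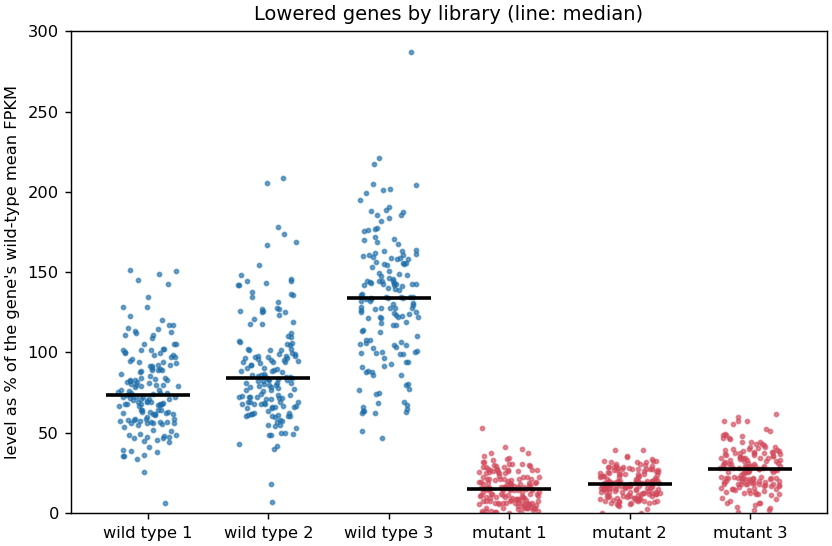
Level of each of the 157 lowered genes (points) in each library, as a percent of the gene's own wild-type mean FPKM. Black lines are medians: 73.7%, 84.2% and 133.7% in wild-type replicates 1 to 3, and 15.0%, 17.7% and 27.5% in mutant replicates 1 to 3.

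In 14 genes mutant replicate 1 read at most 10% of mutant replicate 3 (8.9%, against 0.1% of the other eligible genes). Besides Zm00001d044864 and the chromosome 4, 2 and 8 genes above, these include a chromosome 3 gene (27549265 to 27550063) at 0.329, 3.79 and 8.31 FPKM in the mutant and 25.1, 20.2 and 44.2 FPKM in wild type. A chromosome 6 gene (85905987 to 85906962) read 3.17, 17.9 and 35.5 FPKM in the mutant and 62.1, 116.6 and 96.8 FPKM in wild type. Both examples were picked with their values known. In both, mutant replicate 3 was well above mutant replicate 1 and still below every wild-type library. The share of 8.9% is a description and no property apart from the rule. The rule favours genes of low mutant level, where such a ratio can rest on few reads. Among the 14 genes, the chromosome 7 gene at 125510140 had 0, 0 and 1 mutant reads, whereas Zm00001d044864 had 28, 81 and 377.

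The gap between genotypes was therefore wide in some genes and narrow in others. The lowest wild-type library was at least 2 times the highest mutant library in 90 of the 157 genes (57.3%, against 0.3% of the other eligible genes). It was at least 4 times in 15 (9.6%, against 0.0%). In 9 genes it was above the highest mutant library but under 1.2 times (5.7%, against 16.2%). The limits on overlap and on the log2 difference largely set these shares. No overlap between genotypes in this direction is common in these libraries: 28.0% of all eligible genes showed it. Just inside that limit lay a chromosome 8 gene (35522370 to 35523774), whose highest mutant library read 19.8 FPKM and whose lowest wild-type library read 20.6 FPKM. Just outside lay a chromosome 7 gene (19750770 to 19754324) with a log2 difference of 2.86, left out because mutant replicate 3 at 23.9 FPKM exceeded wild-type replicate 1 at 20.6 FPKM.

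At the limit of 1.5 on the log2 difference, the 5 genes just inside had values of 1.507 to 1.515 and the 5 just outside 1.484 to 1.493. The innermost was the chromosome 10 gene at 129108410, and the nearest outside was a chromosome 2 gene (12371064 to 12374599) with 60.2, 79.7 and 57.4 FPKM in wild type and 16.9, 18.7 and 35.8 FPKM in the mutant. Their levels do not mark a break, and the number of genes depends on the limit: 466 with a difference of at least 1, and 67 with at least 2. At the limit of 5 FPKM, the lowest wild-type means inside were 5.01, 5.48 and 5.50 FPKM and the highest outside 4.66, 4.62 and 4.41 FPKM, and 24 genes failed on this limit alone.

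The rule was also applied to 5 libraries at a time, and the genes it chose were looked up in the library left out. This describes that library and is no test, since the libraries it is set against had chosen the genes. In mutant replicate 1 the 143 genes chosen without it had a median of 15.6% of the wild-type mean, with quartiles of 8.0% and 26.6%. In mutant replicate 2 the 148 genes chosen without it had a median of 18.2%, with quartiles of 12.1% and 27.1%. Both medians were below those of the mutant libraries that chose the genes, 22.2% and 21.1%. Mutant replicate 3 differed: the 227 genes chosen without it had a median of 34.5% in it, against 19.3% in the other mutant libraries, and 29 of them did not read below every wild-type library.

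Wild-type libraries that were left out also differed. Relative to the mean of the other wild-type libraries, the chosen genes had a median of 57.6% in wild-type replicate 1 (246 genes), 69.4% in replicate 2 (185 genes) and 125.3% in replicate 3 (124 genes). Of these genes 30, 7 and 9 did not read above every mutant library in wild-type replicates 1, 2 and 3. The shares that did were 87.8%, 96.2% and 92.7%. Among the other genes eligible on the same 5 libraries they were 40.6%, 48.4% and 55.3%. Wild-type replicates 1 and 2 thus read the genes lower than the wild-type libraries that had chosen them, and wild-type replicate 3 read them higher.

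Gene structure took no part in the rule. The lowered genes were shorter than the other eligible genes and more often counted over their whole span, although most were not. The length over which reads were counted, recovered from the FPKM values, had a median of 1167 bp against 1700.0 bp for the other eligible genes, and the span had a median of 1423 bp against 3463 bp. A counted length equal to the whole span, here called a single segment, was found for 56 of 157 genes (35.7%) and for 1729 of 10834 other eligible genes (16.0%). The counted length was under 1000 bp in 68 of the lowered genes (43.3%) and in 22.2% of the others. Genes are not independent samples, and no test was run on these shares.

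**Figure D4:**
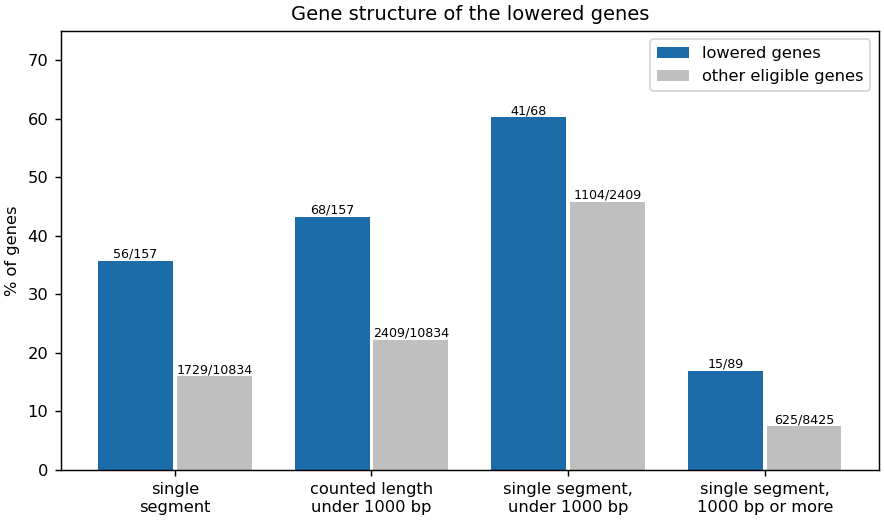
Percent of the 157 lowered genes and of the other 10834 eligible genes that are counted over a single segment or have a counted length under 1000 bp, with the single-segment share also given within both length classes; numbers above the bars are genes of all genes in the class. The lowered genes have the taller bar in each pair, at 35.7% against 16.0% in the first.

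The share of single segments was also higher within either length class. Among genes counted over less than 1000 bp it was 41 of 68 (60.3%) against 1104 of 2409 (45.8%), and from 1000 bp on it was 15 of 89 (16.9%) against 625 of 8425 (7.4%). Among genes of 5 to 20 FPKM in wild type it was 34 of 76 (44.7%) against 13.5%, and from 20 FPKM on 22 of 81 (27.2%) against 19.9%. The same feature was found on the opposite side: of 139 genes that met the mirrored rule, higher in the mutant, 53 (38.1%) were single-segment genes, with a median counted length of 1202 bp. Single segments were thus frequent among genes with large differences in either direction. Across the other settings of the rule, the single-segment share of the lowered genes ran from 28.8% to 41.8%.

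The genes lay on all 10 chromosomes, with 1 more on an unplaced contig. Chromosome 2 held 23, chromosomes 1 and 3 held 20 each, and chromosome 10 held 8. Per 100 eligible genes, this is 1.86 on chromosome 2 and 1.97 on chromosome 9 at the high end, and 1.0 on chromosome 6 and 1.15 on chromosome 1 at the low end. The plus strand carried 80 of the 157 (51.0%, against 49.9% of the other eligible genes), and 90 lay in the outer 20% at either end of the listed extent of their chromosome (57.3%, against 59.1%). In strand and in place along the chromosome the lowered genes thus lay close to the other eligible genes.

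Few lowered genes were close neighbours. Within 100 kb of another lowered gene lay 9 of the 157 (5.73%), in 4 groups on chromosomes 2, 4, 5 and 9. The count depended on the processing: it was 5 with either rescaling, and 14 when mutant replicate 3 or wild-type replicate 1 was left out. With median-of-ratios scaling both chromosome 2 genes (log2 differences 1.45 and 1.42) and the first chromosome 5 gene (1.41) were below the limit of 1.5. Read from the neighbours' side, 9 of 358 tested genes within 100 kb of a lowered gene were themselves lowered genes (2.51%), against 0.82% of all tested genes. The tested genes include some below 5 FPKM in wild type, which could not be lowered genes. A like count over the eligible genes alone is not given here. The other 349 tested neighbours had a median log2 difference of 0.21, against 0.19 for the remaining tested genes, and 71.1% against 70.4% of them were higher in wild type. Neighbours that were not in the set thus had differences close to those of the table as a whole.

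The group on chromosome 4 held 3 lowered genes within 71.2 kb. Beside the gene at 10536338 it held a plus-strand gene 16.6 kb further on (10553796 to 10554681), with 16.6, 23.9 and 32.9 FPKM in wild type and 0.0719, 3.60 and 4.48 FPKM in the mutant. In both genes, which lie on opposite strands, mutant replicate 1 was nearly empty, at 4 reads and 1 read. Their libraries also had the same order, but that order in the mutant, replicate 1 below 2 below 3, was found in 74 of the 157 genes (47.1%). The outermost of the group (10603315 to 10607553) read 7.89, 8.67 and 14.3 FPKM in wild type and 1.12, 2.02 and 2.77 FPKM in the mutant. A gene between them (10555363 to 10556018) read 1.24, 0.637 and 0.203 FPKM in wild type and 2.95, 0.815 and 1.61 FPKM in the mutant. Its log2 difference was -0.69 and its genotypes overlapped. Beyond the group, a gene at 10671837 to 10673065 read 3.79, 6.99 and 5.77 FPKM in wild type and 1.55, 0.975 and 2.04 FPKM in the mutant. That gene had a log2 difference of 1.36, below the limit of 1.5, and its genotypes did not overlap.

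On chromosome 5, a gene at 4147202 to 4148651 read 38.6, 17.9 and 24.8 FPKM in wild type and 8.64, 4.87 and 9.59 FPKM in the mutant. Its neighbour 60.9 kb away (4209561 to 4210878) read 142.4, 81.7 and 92.9 FPKM in wild type and 39.2, 18.5 and 34.3 FPKM in the mutant. In both, replicate 1 was the highest wild-type library and replicate 2 the lowest in either genotype, and no other listed gene lay between them.

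On chromosome 9, the pair 92.0 kb apart was less alike. One gene (155900011 to 155902009) read 69.8, 161.4 and 47.2 FPKM in wild type and 7.50, 8.94 and 33.7 FPKM in the mutant. The other (155994047 to 155999070) read 19.1, 25.6 and 27.4 FPKM in wild type and 3.44, 2.91 and 8.31 FPKM in the mutant. The 5 listed genes between them had log2 differences of -0.64 to 0.40. The adjacent chromosome 2 genes lie 25.7 kb apart on the same strand, and the nearest listed gene beyond them (173966248 to 173967645) read 80.7, 77.9 and 40.8 FPKM in wild type and 94.0, 92.9 and 92.2 FPKM in the mutant. There every mutant library lay above every wild-type library.

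**Figure D5:**
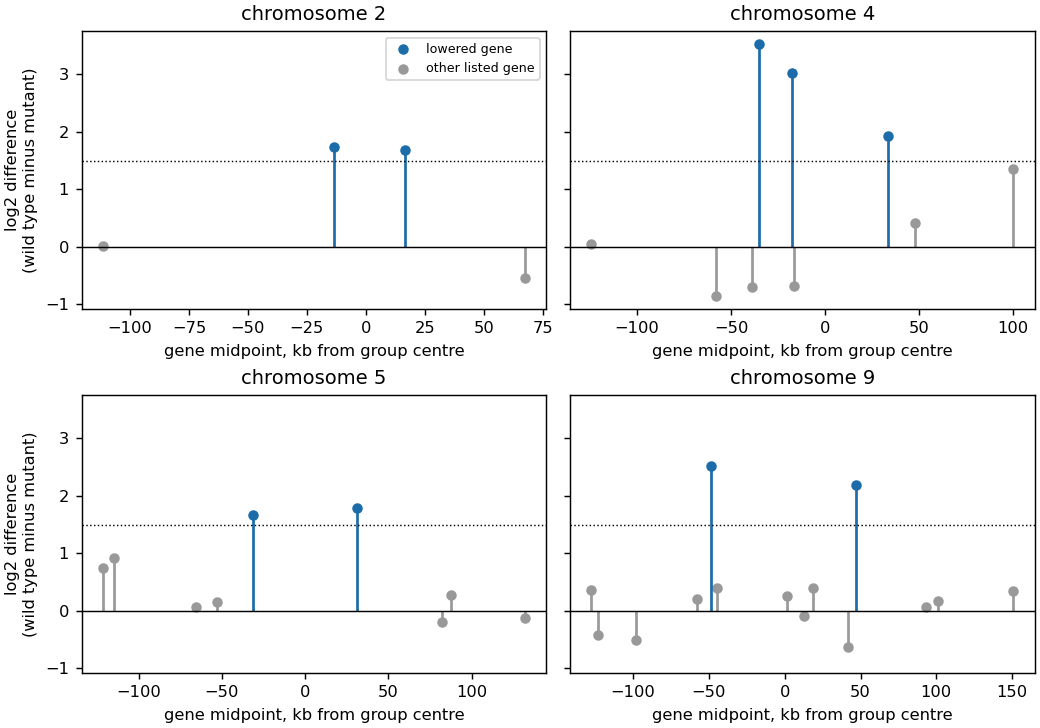
Log2 difference (wild type minus mutant, on the log2(FPKM + 1) scale) of every listed gene around the 4 groups of neighbouring lowered genes, by distance of the gene's midpoint from the centre of the group in kb. Lowered genes (blue) stand above the dotted limit of 1.5, and the genes between and beside them (grey) lie lower, from 1.36 down to -0.86.

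Whether neighbours with like profiles share reads could not be seen, since near-identical copies are uncertain in such counts and their sequences were not analysed here. Overlap of spans concerned few genes: 3 of the 157 overlap another listed gene, 1 of them a gene on the other strand.

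In the comparison of genotypes over the whole table (limma on log2(FPKM + 1), two-sided, Benjamini-Hochberg adjusted p under 0.05), 901 of 18984 tested genes were lower in the mutant (4.75%). Of the 157 genes, 156 were tested and 134 were called lower, with adjusted p from 0.00305 to 0.11 over all 156. The chromosome 1 gene at 121820597 failed the filter on low values. The rule used this same contrast, so the count adds nothing to the choice. Without mutant replicate 1, 17 of the genes were called lower (24 genes over the whole table), and without mutant replicate 2, 16 (25 over the whole table). Calls in the other direction dropped too, from 361 genes higher in the mutant to 30 without mutant replicate 1 and 25 without mutant replicate 2. The drop was thus not particular to the lowered genes, and its cause was not tested. Zm00001d013783 had a log2 fold change of -3.74 (SE 0.27) and Zm00001d044864 one of -4.25 (SE 0.83).

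Leaving out 1 library changed which genes met the rule. Of the 157, 86 met it under each of the 6 choices of 5 libraries, 35 failed under 1 choice and 36 under 2 or more. The most were lost without wild-type replicate 3 (50 lost and 17 gained) and without mutant replicate 1 (26 lost and 12 gained). Without mutant replicate 3, 5 were lost and 75 others met the rule, and without wild-type replicate 1, 4 were lost and 93 gained. The 10 genes with the largest differences met the rule under each choice.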

How the data were processed

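RNA of 6 anther libraries was sequenced. The labels gave the genotype and replicate number of each library. The authors deposited 1 value per gene and library in FPKM. The headers name only the sample, and the unit follows from the values: value times counted length times library total gave whole reads for 31465 of 31470 genes, within 0.0001 reads plus 3e-09 per read. Where the whole span solved this it was taken as the counted length, otherwise the smallest length that did, so some lengths and reads may be too small by a common divisor. Per the submitters' processing notes, which give no roles, the build was B73 RefGen_v4 and the tools included HTSeq 0.6.0, Bowtie2 2.2.3 and HISAT2 2.1.0. The strand setting, filters and annotation of the counting were not given in the sources used here.

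The rule was applied to FPKM as deposited. For all genes that reached 1 FPKM in 3 or more libraries, log2(FPKM + 1) was fitted by genotype with limma 3.58.1 (R 4.3.3, trended variance). The fit was tried on simulated reads with a common setting of spread for all genes and no table-wide shift between genotypes. Both differ from these data, so the trial checks the code and not the calls. Named genes were the 10 largest differences, the 10 most abundant, the 5 lowest and highest in residual and in CV, those within 100 kb of another, and the 5 nearest the limit on either side. The members, lists and settings were chosen with earlier results of these data known, and the description of libraries left out and of gene structure once values had been inspected. Lists of jasmonate, pollen, tapetum, leaf and floral organ genes by symbol gave no values, because no identifier matched a symbol.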

Additional observations from a re-analysis of the deposited data

How the results depend on the processing

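The number of lowered genes, 157, was 466 with a log2 difference of at least 1, 67 with at least 2, 100 with median-of-ratios scaling and 124 to 246 without 1 library, highest without wild-type replicate 1. It was within 1.5 times of 157 under the other alternatives. The median residual of 20.5% was 35.1% with a difference of at least 1, 15.1% with at least 2, and 19.3% to 23.4% without 1 library. The median CV over wild type of 39.4% was 48.1% with a difference of at least 2, and 26.7% to 43.1% without 1 library, lowest without wild-type replicate 3. The 9 genes within 100 kb of another were 14 with a pseudocount of 0.1, 5 with median-of-ratios scaling, 5 with upper-quartile scaling, 44 and 4 with differences of at least 1 and 2, 5 within 50 kb, and 7 to 14 without 1 library. Over all tested genes, 901 were called lower by limma. This was 410 with median-of-ratios scaling, 500 with upper-quartile scaling, 167 with no filter, 518 with an FPKM of 5 in 3 libraries, 20 at adjusted p under 0.01 and 24 to 739 without 1 library. Of the lowered genes, 134 were called. This was 48 with no filter, 12 at adjusted p under 0.01 and 16 to 124 without 1 library. With the replicate block 468 genes were called lower, 145 of them among the lowered genes, but the deviations of libraries with the same number correlated at 0.01, -0.38 and -0.33, so the numbers are not taken as pairs. The cause of these changes was not tested, except that stricter or looser limits and fewer libraries act by construction. The single-segment share was recomputed as alternatives chosen after seeing the data and stayed between 28.8% and 41.8%. Over 47 named genes and 10 settings, 456 log2 differences moved by less than the spread between replicates, 14 moved by more and 0 changed sign. With 1 library left out or another pseudocount no sign could change, since none of these genes overlaps between genotypes. The level of genes with few mutant reads is limited by depth.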
